A study of Mus musculus with 12 samples.

Results

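The EGF family ligands and their ERBB receptors were followed in the duodenum and liver of mice given corticosterone (CORT) or vehicle (Veh). A set of 10 family genes was read, chosen by name, with 7 ligands (Nrg4, Nrg1, Ereg, Areg, Hbegf, Btc and Tgfa) and 3 receptors (Egfr, Erbb2 and Erbb3), of 55416 genes in each table. These 10 genes were proposed with their CORT and Veh values and the difference between tissues already known, so those values describe them and do not test them, and no p-value is given for any of the 10. Nrg1 was carried by 2 entries of the tables, so 11 entries were read, and the second, ENSMUSG00000118541, was listed at 0 in all 12 libraries.

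Ligands of this family are made as membrane proteins, mostly released by ADAM proteases, and bind receptor tyrosine kinases of the ERBB family. EGFR binds EGF, TGF-alpha, amphiregulin, epiregulin, betacellulin and HB-EGF, while ERBB3 and ERBB4 bind neuregulins, ERBB2 has no known ligand of its own and ERBB3 signals mainly through a partner receptor. In the gut the family supports epithelial renewal and repair, and in the liver EGFR takes part in hepatocyte growth and regeneration.

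Male C57BL6/J mice, aged 8 weeks when treatment began, were injected subcutaneously each day over 8 weeks, either with CORT (40 mg/kg), the principal rodent glucocorticoid, or with vehicle. RNA from 50 mg of tissue per sample gave 3 biological replicates in each of 4 groups, CORT and Veh in the duodenum (called intestine in the labels) and CORT and Veh in the liver. All groups shared sex, strain, age and length of treatment, and the labels do not say whether equal replicate numbers in the tissues mark the same mouse. Values are TPM, transcript abundances scaled for gene length and library total, so levels can be compared between genes. TPM keeps no read depth, so counting error is not known here.

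Markers of both tissues were read first. A sum of 6 hepatocyte genes was 4.76 to 9.03 TPM in the duodenum and 50315 to 83212 TPM in the liver, while 8 enterocyte genes summed to 22887 to 45091 TPM in the duodenum and 3794 to 13793 TPM in the liver. Without Fabp1 and Apoa4, which hepatocytes also express, the liver sum of this list was 26.9 to 112 TPM, and Alpi, Lct and Sis were at 0.01 TPM or less in every liver library. Fkbp5, a target gene of the glucocorticoid receptor, rose in both tissues, by 4.30 (SE 0.34) on the log2 scale in the duodenum and 4.23 (SE 0.32) in the liver, with limma adjusted p = 0.00450 and 0.00178. The Veh libraries of the duodenum stood apart from each other. The sum of 18 pancreatic acinar genes was 152 TPM in Veh1, 34958 in Veh2 and 27811 in Veh3, against 118 to 299 in CORT, and Tff2 and A4gnt of the Brunner gland list summed to 0.83, 144 and 145 TPM against 0.04 to 0.66. The summed enterocyte list of CORT duodenum lay above that of Veh in all libraries (41744 to 45091 against 22887 to 32195 TPM), with 3 of its 8 genes, Fabp1, Fabp2 and Apoa4, each higher without overlap, and the B and plasma cell list was lower (224 to 528 against 823 to 1022 TPM for 5 genes). The 4 genes of the Kupffer cell list summed to 6.76 to 10.78 TPM in CORT and 0.27 to 1.94 TPM in Veh duodenum. Of these, Vsig4 was listed at 0 in every duodenum library. A list of 5 macrophage genes overlapped there, at 157 to 220 TPM in CORT and 121 to 214 TPM in Veh. In the liver, 4 endothelial genes summed to 21.98 to 29.5 TPM in CORT and 5.71 to 15.9 TPM in Veh, while the hepatocyte, cholangiocyte, Kupffer cell, stellate cell and fibroblast lists overlapped. The T cell list (0.22 to 1.00 against 1.02 to 2.98 TPM), the B and plasma cell list (0.22 to 1.03 against 1.23 to 5.52 TPM) and the crypt stem list (4.51 to 5.94 against 6.44 to 7.34 TPM) were low in the liver and lower in CORT. The part of these shifts in the results was not tested. In bulk tissue, fewer cells of a type and less RNA per cell cannot be told apart.

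Nrg4, neuregulin 4, which binds ERBB4 and is known as a secreted factor of brown fat acting on liver, was higher with CORT in both tissues (ENSMUSG00000032311). In the duodenum its level was 4.60, 3.99 and 4.07 TPM in Veh and 18.59, 19.15 and 22.08 TPM in CORT. The liver values were 7.88, 11.13 and 10.70 TPM in Veh and 51.66, 45.63 and 64.25 TPM in CORT. Every CORT library lay above every Veh library of its tissue, and the lowest CORT library of the liver lay above the highest of the duodenum. The group means were 4.22 ± 0.332 and 19.9 ± 1.87 TPM (SD, n = 3) in the duodenum, a 4.73-fold ratio, and 9.90 ± 1.77 and 53.8 ± 9.50 TPM (SD, n = 3) in the liver, a 5.44-fold ratio. From highest to lowest, liver CORT, duodenum CORT, liver Veh and duodenum Veh followed each other with no overlap between neighbouring groups. The liver level exceeded the duodenum level 2.35-fold in Veh and 2.70-fold in CORT.

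On the log2(TPM + 1) scale, which understates the change of low genes, Nrg4 was higher in CORT by 2.00 (SE 0.13) in the duodenum and 2.33 (SE 0.18) in the liver. A gene was called a DEG at a limma adjusted p of 0.05 or less with a fold change over 1.5. Of the 10 genes, 9 were tested in the duodenum and 4 in the liver, since 1 group had to average 1 TPM or more, and Nrg4 was the 1 called in each, where 2.15% and 6.92% of all genes tested were called. These calls restate the values by which the members were proposed and are given as a description. Leaving out each library in turn gave 1.93 to 2.05 in the duodenum and 2.19 to 2.44 in the liver. Removing the 18 acinar genes and rescaling gave 1.98 in the duodenum. With Veh1 as the sole Veh library, the value was 1.90 and Nrg4 was no longer called, in a fit that called 10 of 13576 genes.

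The 250 bases before the start site that RefSeq's promoter table uses are shown for the 3 tested members whose Veh and CORT values did not overlap, Nrg4, Egfr and Tgfa, to set beside those values the letters of the glucocorticoid response element, the sequence that the receptor for CORT binds. The sequences are RefSeq's, in build GRCm38.p6, written 5′ to 3′ on the gene's strand, whereas the tables were made with GRCm39. Nrg4 lies on the minus strand with its window at chr9:55283626-55283875, Egfr on the plus strand at chr11:16751953-16752202 and Tgfa on the plus strand at chr6:86194972-86195221. The full element was searched as GNACANNNTGTNC, which reads alike on both strands, and the half-sites as GNACA and TGTNC, each the other's reverse complement. Capitals mark a half-site.
Nrg4: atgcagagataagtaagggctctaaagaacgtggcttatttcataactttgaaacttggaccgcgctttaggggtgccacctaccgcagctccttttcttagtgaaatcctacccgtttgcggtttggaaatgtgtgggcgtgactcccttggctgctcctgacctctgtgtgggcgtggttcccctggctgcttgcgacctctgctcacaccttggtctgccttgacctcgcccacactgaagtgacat
Egfr: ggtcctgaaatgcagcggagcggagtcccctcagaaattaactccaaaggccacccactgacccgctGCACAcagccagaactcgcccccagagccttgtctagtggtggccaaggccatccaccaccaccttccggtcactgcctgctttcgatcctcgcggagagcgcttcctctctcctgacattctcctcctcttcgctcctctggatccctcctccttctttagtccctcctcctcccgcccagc
Tgfa: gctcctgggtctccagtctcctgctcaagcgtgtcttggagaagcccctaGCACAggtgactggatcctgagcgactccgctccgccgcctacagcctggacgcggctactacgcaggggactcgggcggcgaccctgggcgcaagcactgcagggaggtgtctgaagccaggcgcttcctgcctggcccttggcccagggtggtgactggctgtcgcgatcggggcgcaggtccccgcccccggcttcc

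No exon overlapped any of the 3 windows in GENCODE M21, and 1 Nrg4 transcript spanned the Nrg4 window, which is thus intronic to it. The Nrg4 window held 0 half-sites, and the windows of Egfr and Tgfa held 1 each, where the median over 32851 promoters of the same length was 2 and 81.3% held at least 1. None of the 6 members with an entry held the full element, which 0.387% of all promoters held. This says only that these letters are not in these windows. GC content was 53.2% for Nrg4, 60.8% for Egfr and 69.2% for Tgfa, against a median of 52.4%, and the windows held 10, 11 and 19 CpG sites, against a median of 6.

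The other neuregulins were low. Nrg1, a ligand of ERBB3 and ERBB4 (ENSMUSG00000062991), was at 0.36, 0.96 and 1.65 TPM in Veh and 1.38, 3.71 and 1.77 TPM in CORT duodenum, a log2 fold change of 0.71 (SE 0.35). Its groups overlapped, and it was not called. In the liver it lay between 0.07 and 0.68 TPM in every library and was not tested. Nrg2 was at 0.45 to 1.66 TPM in the duodenum, with a log2 fold change of -0.29 (SE 0.29, limma adjusted p = 0.603), and at no more than 0.25 TPM in the liver. Nrg3 was at no more than 0.03 TPM in the duodenum and listed at 0 in the liver.

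**Figure D1:**
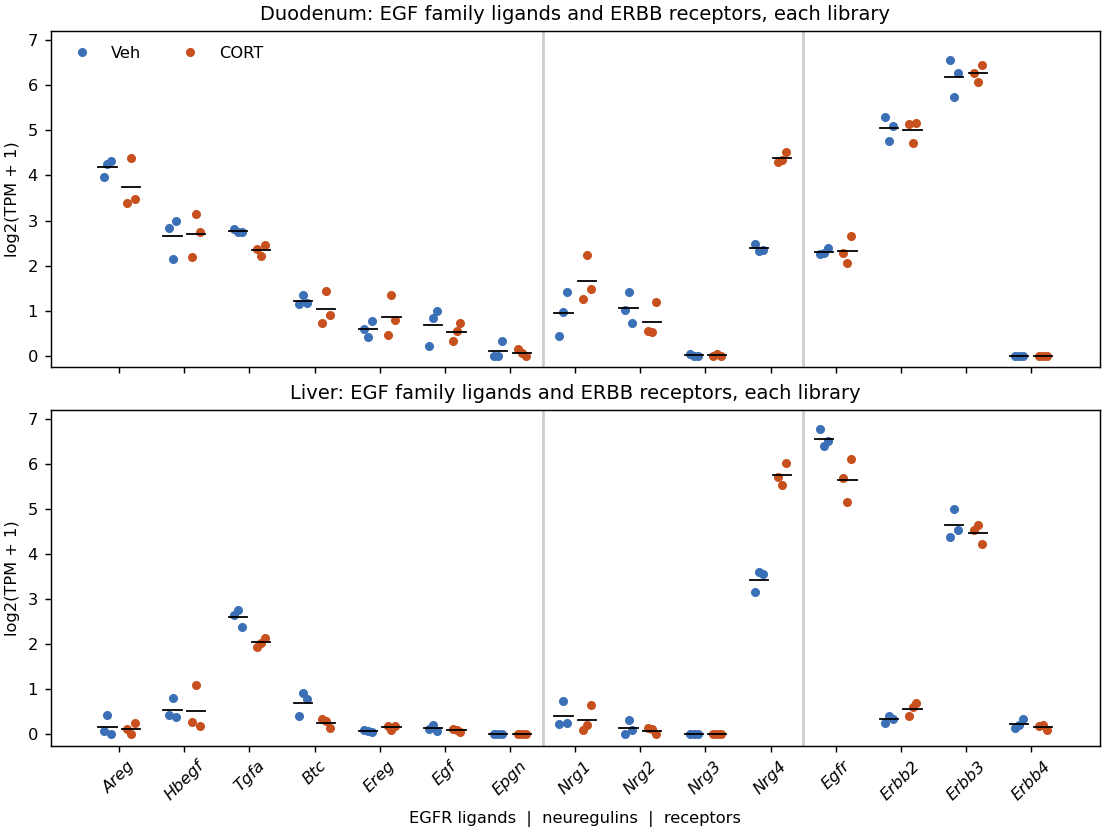
Levels of 15 family genes, as log2(TPM + 1) on the vertical axis, in each duodenum (top) and liver (bottom) library, with ligands of EGFR, neuregulins and receptors from left to right. Points are libraries, 3 per group, and lines are group means. Nrg4 is the gene whose CORT points lie well above its Veh points in both tissues, and Egfr stands high in the liver and low in the duodenum.

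Among the ligands of EGFR, Tgfa, which encodes TGF-alpha (ENSMUSG00000029999), was lower in CORT than in Veh in both tissues without overlap. In the duodenum its level was 6.04, 5.69 and 5.68 TPM in Veh and 4.14, 3.64 and 4.52 TPM in CORT, means of 5.80 ± 0.205 and 4.10 ± 0.441 (SD, n = 3). The liver values were 5.28, 5.79 and 4.23 TPM in Veh and 2.84, 3.09 and 3.43 TPM in CORT, means of 5.10 ± 0.795 and 3.12 ± 0.296 (SD, n = 3). The Veh mean was 1.42-fold the CORT mean in the duodenum and 1.63-fold in the liver. The log2 fold changes were -0.42 (SE 0.13) and -0.56 (SE 0.15), and Tgfa was called in neither tissue. Scaling each library by its median ratio gave -0.64 in the liver, and Tgfa was then called there.

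Areg, which encodes amphiregulin (ENSMUSG00000029378), was the most abundant ligand of EGFR in the duodenum. Its level was 14.68, 17.98 and 18.90 TPM in Veh and 9.44, 19.87 and 10.14 TPM in CORT. CORT2 was the highest of all 6 libraries, and the other two CORT libraries lay below every Veh library. The log2 fold change was -0.43 (SE 0.27), and -0.75 without CORT2, and Areg was not called. In the liver no library exceeded 0.34 TPM.

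Hbegf, which encodes HB-EGF (ENSMUSG00000024486), overlapped between groups in both tissues. Its duodenum level was 6.08, 3.43 and 6.91 TPM in Veh and 3.59, 7.80 and 5.71 TPM in CORT, with a log2 fold change of 0.04 (SE 0.30). Liver values ran from 0.31 to 0.75 TPM in Veh and from 0.13 to 1.13 TPM in CORT, CORT2 being the highest.

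Btc, which encodes betacellulin (ENSMUSG00000082361), was at 1.2, 1.54 and 1.26 TPM in Veh and 0.66, 1.71 and 0.88 TPM in CORT duodenum, overlapping, with a log2 fold change of -0.19 (SE 0.24). Liver Btc was at 0.32, 0.88 and 0.73 TPM in Veh and 0.27, 0.23 and 0.10 TPM in CORT. The liver groups did not overlap, but all 6 values were under 1 TPM and Btc was not tested there. Ereg, which encodes epiregulin (ENSMUSG00000029377), was at 0.33 to 0.70 TPM in Veh and 0.37 to 1.53 TPM in CORT duodenum and between 0.04 and 0.14 TPM in the liver, and it was tested in neither tissue. Egf itself reached 0.99 TPM in the duodenum and 0.16 TPM in the liver, and Epgn 0.26 TPM in the duodenum, with 0 listed in the liver.

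Egfr, the receptor of the EGF-type ligands (ENSMUSG00000020122), had lower values with CORT than with Veh in the liver, without overlap, and its groups overlapped in the duodenum. Its liver level was 107.98, 83.40 and 89.71 TPM in Veh and 50.48, 34.55 and 67.98 TPM in CORT. The liver means were 93.7 ± 12.8 and 51.0 ± 16.7 TPM (SD, n = 3), a Veh mean 1.84-fold the CORT mean. In the duodenum it was 3.77, 3.86 and 4.24 TPM in Veh and 3.86, 3.16 and 5.26 TPM in CORT, with means of 3.96 ± 0.249 and 4.09 ± 1.07 (SD, n = 3). Liver Veh was highest and liver CORT next, without overlap, and both duodenum groups came last and overlapped each other. The liver level was 23.7-fold the duodenum level in Veh and 12.5-fold in CORT. The log2 fold change was -0.91 (SE 0.25) in the liver and 0.02 (SE 0.18) in the duodenum. Egfr was called in neither tissue. Of 6 fits that left out a liver library, 1 called it, at -1.14, which made 2 members called there in place of 1. That fit left out CORT3, the CORT library with the highest Egfr value, and it restates the values by which Egfr was proposed. The summed hepatocyte list, 50315 to 83212 TPM in Veh and 58266 to 70509 TPM in CORT liver, overlapped between the groups, while the endothelial list was higher in CORT. The part of cell make-up in the Egfr values was not tested.

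Erbb3, the receptor that pairs with ERBB2 (ENSMUSG00000018166), was the most abundant receptor transcript in the duodenum. Its level was 93.15, 52.65 and 76.59 TPM in Veh and 76.47, 66.47 and 86.73 TPM in CORT, with a log2 fold change of 0.08 (SE 0.22). Liver Erbb3 was at 19.85, 31.10 and 22.18 TPM in Veh and 22.15, 23.96 and 17.79 TPM in CORT, with a log2 fold change of -0.17 (SE 0.20). Both pairs of groups overlapped.

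Erbb2, the partner without a ligand (ENSMUSG00000062312), was at 38.28, 26.21 and 33.31 TPM in Veh and 34.45, 25.46 and 35.06 TPM in CORT duodenum, overlapping, with a log2 fold change of -0.04 (SE 0.19). In the liver it was at 0.20, 0.33 and 0.26 TPM in Veh and 0.32, 0.53 and 0.61 TPM in CORT, overlapping, and was not tested. In Veh the duodenum level was 124-fold the liver level. Erbb4, which binds NRG4, was listed at 0 in every duodenum library and lay between 0.07 and 0.27 TPM in the liver.

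Across the set, CORT and Veh did not overlap for 2 of the 9 members tested in the duodenum (Nrg4 above, Tgfa below) and for 3 of the 4 tested in the liver (Nrg4 above, Tgfa and Egfr below). The share of all genes tested that did not overlap was 26.4% in the duodenum and 32.2% in the liver. Over all 10 members the counts were 2 and 4, the fourth in the liver being Btc.

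**Figure D2:**
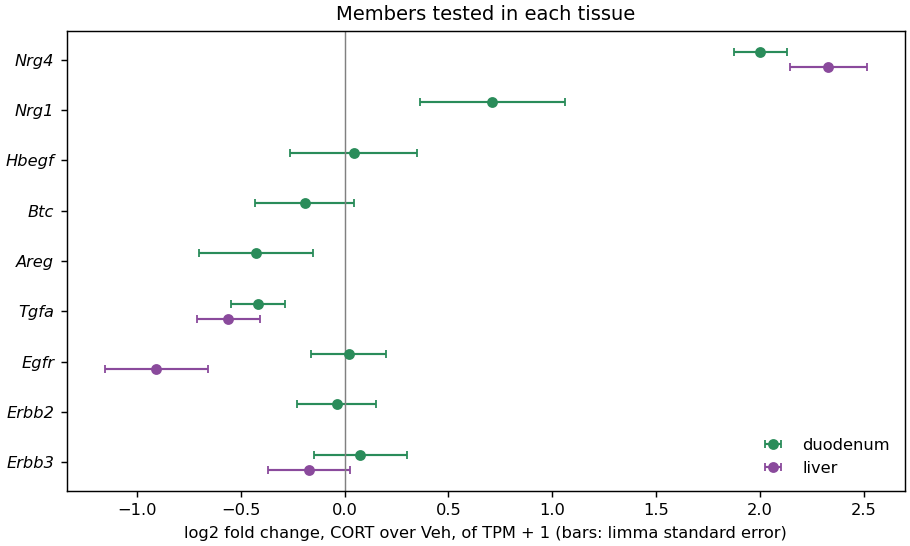
Log2 fold change of TPM + 1, CORT over Veh, on the horizontal axis, for each member tested in the duodenum (green) and liver (purple). Points are limma estimates from 3 libraries per group and bars their standard errors. Nrg4 stands at 2.00 and 2.33, and Egfr at 0.02 in the duodenum and -0.91 in the liver.

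The make-up of the ligand transcripts differed between CORT and Veh libraries. Nrg4 made up 13.3, 10.97 and 9.91% of the summed TPM of all 11 ligands in Veh duodenum and 47.7, 32.8 and 46.2% in CORT duodenum. In the liver its share was 55.4, 55.6 and 65.5% in Veh and 93.1, 90.4 and 93.3% in CORT. Nrg4 thus took a larger share in every CORT library than in any Veh library of its tissue. The Areg share was 45.9 ± 3.57% in Veh and 26.5 ± 6.69% in CORT duodenum, and the Tgfa share 30.6 ± 5.81% in Veh and 5.41 ± 0.623% in CORT liver (SD, n = 3). These shares are tied to each other, since a larger share of Nrg4 leaves less for the rest.

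Summed ligand TPM was 34.7, 36.4 and 41.1 in Veh and 39.0, 58.4 and 47.8 in CORT duodenum, which overlapped. In the liver it was 14.2, 20.0 and 16.3 in Veh and 55.5, 50.4 and 68.8 in CORT, without overlap. Without Nrg4 the liver sums were 6.34, 8.90 and 5.63 TPM in Veh and 3.81, 4.82 and 4.58 TPM in CORT, so CORT was then the lower group.

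Summed receptor TPM was made up of different genes in the tissues. It was 111 ± 26.4 TPM in Veh and 112 ± 16.1 TPM in CORT duodenum, and 119 ± 8.43 TPM in Veh and 72.9 ± 13.6 TPM in CORT liver (SD, n = 3), where the liver groups did not overlap. Erbb3 made up 66.5 ± 2.67% and Erbb2 29.7 ± 1.75% of it in Veh duodenum, while Egfr made up 78.9 ± 5.92% and Erbb3 20.8 ± 5.85% in Veh liver. In CORT liver the Egfr share was 69.1, 58.4 and 78.6%, against 84.3, 72.5 and 79.8% in Veh, and the groups overlapped.

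**Figure D3:**
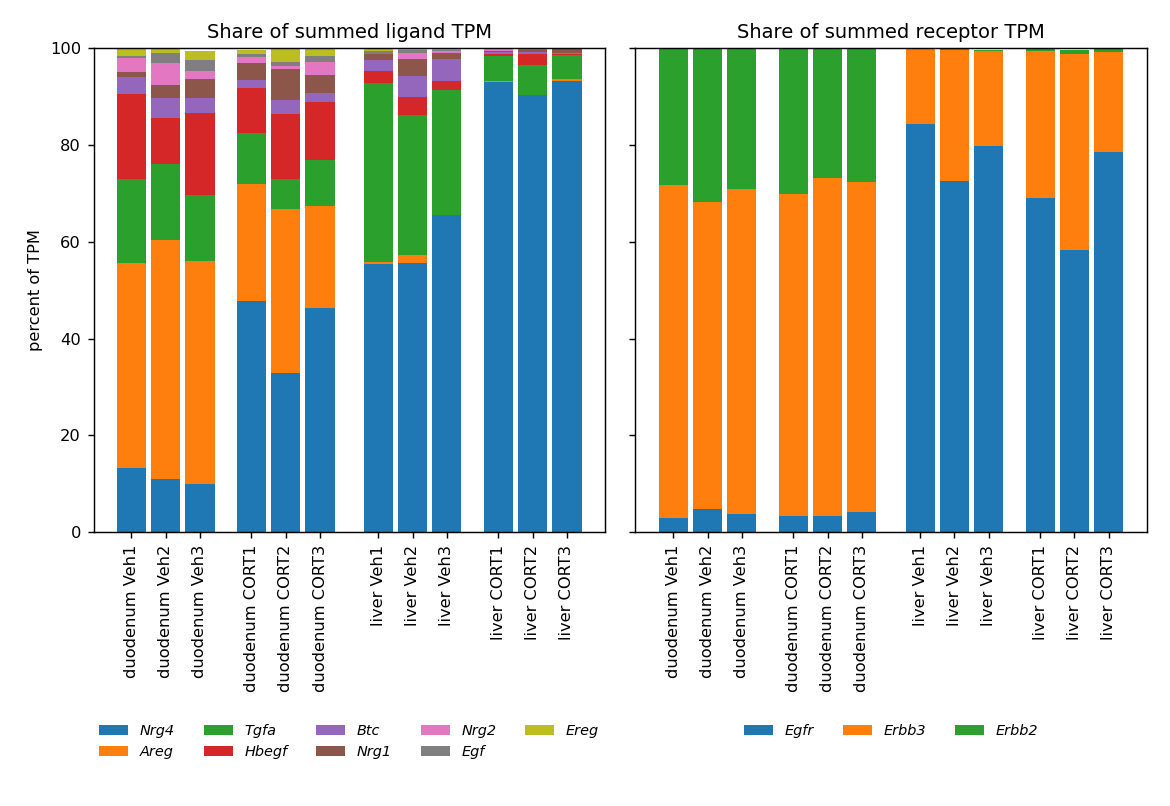
Percent of the summed TPM of the EGF family ligands (left) and ERBB receptors (right) made up by each gene, one bar per library. Epgn, Nrg3 and Erbb4, each at 0.633% or less in any library, are not drawn. The Nrg4 band is wider in every CORT bar than in the Veh bars of its tissue, and the main receptor band is Erbb3 in the duodenum and Egfr in the liver.

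The difference of the log2 fold changes, duodenum minus liver, was taken from a limma fit of all 12 libraries, which treats the libraries as independent. It was called by limma for 0 of the 9 members tested, where 3.61% of all genes tested were called at the same adjusted p. By unadjusted p it passed for 1 member, Egfr, and no share of all genes was taken at that threshold. For Egfr it was 0.93 (SE 0.32), its values in the duodenum and liver being 0.02 and -0.91, and for Nrg4 it was -0.33 (SE 0.22). The 3 CORT liver libraries of Egfr spread from 34.55 to 67.98 TPM. Nrg1, Areg, Hbegf, Btc and Erbb2 averaged under 1 TPM in both liver groups. Their differences thus set a duodenum change beside liver values near the floor. The differences of members were among the values by which they were proposed, and are given as a description.

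Genes whose centred log2(TPM + 1) values lay nearest to those of Nrg4 over the 12 libraries were ranked among 14805 genes by root mean square difference. Coro2b came first at 0.38 on the log2 scale, with group means of 20.1 and 50.2 TPM in Veh and CORT duodenum and 30.3 and 157 TPM in Veh and CORT liver. Cd163 at 0.43 and Retreg1 at 0.44 followed. Cd163 was low, with means of 0.38 and 3.27 TPM in Veh and CORT duodenum and 1.93 and 14.45 TPM in Veh and CORT liver. For Egfr the nearest were Gm49804 at 0.26, Cyp4a12b at 0.31 and Gm10800 at 0.31, each with a mean of no more than 0.13 TPM in either duodenum group.

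The other genes of the pathway were read as 4 lists, which with the 5 other family genes hold 73 genes. Of 66 tested in the duodenum, 2 were called, both higher in CORT, and of 60 tested in the liver, 5 were called, 4 higher and 1 lower. Beside these counts stand 2.15% and 6.92% of all genes.

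Of 10 genes of ligand release, 9 were tested in the duodenum, with a median log2 fold change of 0.10 against -0.01 over all genes, and 1 was called. It was Timp3, which encodes an inhibitor of the ADAM proteases that release ligands. Its level was 7.11, 9.69 and 9.51 TPM in Veh and 17.67, 23.81 and 21.30 TPM in CORT, a log2 fold change of 1.17 (SE 0.17, limma adjusted p = 0.0272). Timp3 passed without Veh1 or without CORT1 and missed the threshold without any one of the other 4 libraries (limma adjusted p up to 0.0929), and also without the filter on low values. Rhbdl2, a rhomboid protease, had a log2 fold change of -0.78 in the duodenum with a limma adjusted p = 0.0501, and was called, lower in CORT, under a pseudocount of 0.1, median-ratio scaling or removal of the acinar genes. The list holds proteases as well as Timp3, an inhibitor, so its median has no direction for release. In the liver 7 genes of the list were tested, with a median of 0.40 against 0.08 over all genes. There 0 were called by limma (2 by unadjusted p, by which 1808 of all 11699 genes were called). Timp3 there had a log2 fold change of 1.84 with a limma adjusted p = 0.0714.

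Of 18 genes that restrain the receptors, 18 were tested in the duodenum and 17 in the liver, with medians of 0.04 and 0.20 and 1 called in each. Cblb, a ubiquitin ligase of the Cbl family, which mark active receptors for removal, was at 2.96, 2.78 and 3.04 TPM in Veh and 6.23, 5.08 and 6.47 TPM in CORT duodenum. It rose by 0.81 (SE 0.14, limma adjusted p = 0.0397) on the log2 scale, and missed the threshold without any one of the 6 libraries (limma adjusted p 0.0585 to 0.139), and also without the filter on low values. Ptpn1, a phosphatase that acts on EGFR, was at 7.48, 8.39 and 6.81 TPM in Veh and 13.49, 13.62 and 13.45 TPM in CORT liver. It rose by 0.77 (SE 0.12, limma adjusted p = 0.0171), and passed in 2 of 6 fits that left out a library, those without Veh2 or CORT3 (limma adjusted p 0.0203 to 0.0820 over the 6).

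Of 27 genes that carry the signal inside the cell, 27 were tested in the duodenum and 26 in the liver, with medians of 0.02 and 0.09. None was called in the duodenum by limma (0 also by unadjusted p with the same fold limit), and 2 rose in the liver. Pik3r1, the regulatory subunit of PI3-kinase, was at 7.72, 7.44 and 7.49 TPM in Veh and 17.46, 16.15 and 19.41 TPM in CORT liver, a log2 fold change of 1.12 (SE 0.12, limma adjusted p = 0.00552), called in 6 of 6 fits without a library. Ptpn11, the phosphatase SHP2 that passes the signal on to RAS, was at 10.45, 13.72 and 10.66 TPM in Veh and 20.55, 17.11 and 18.50 TPM in CORT liver. Its log2 fold change was 0.65 (SE 0.15, limma adjusted p = 0.0470), and it passed without Veh2 but missed the threshold without any one of the other 5 libraries (limma adjusted p up to 0.169), without the filter on low values and under median-ratio scaling.

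Of 13 genes that respond to ERK, the kinase at the end of this pathway, 11 were tested in the duodenum, with 0 called by limma, 0 also by unadjusted p with the same fold limit, and a median of 0.08. In the liver 10 were tested, with a median of -0.44, 3 above 0 and 7 below. Epha2, a receptor tyrosine kinase, rose from 6.5, 5.01 and 5.83 TPM in Veh to 20.13, 16.60 and 14.89 TPM in CORT liver, by 1.42 (SE 0.16, limma adjusted p = 0.00597), in 6 of 6 fits without a library. Egr1, an immediate early transcription factor, was at 69.84, 28.72 and 17.88 TPM in Veh and 0.62, 1.59 and 4.65 TPM in CORT liver. Its log2 fold change was -3.57 (SE 0.59, limma adjusted p = 0.0185), and it missed the threshold without CORT1 or without CORT2 (limma adjusted p up to 0.0572), and also without the filter on low values. The 2 genes called in this list thus went in opposite directions.

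**Figure D4:**
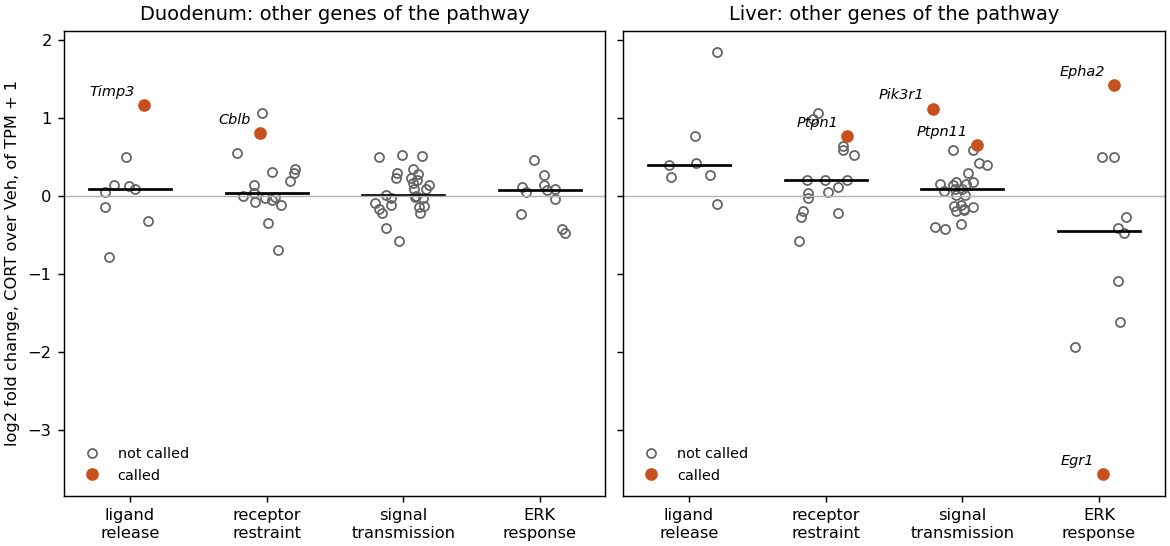
Log2 fold change of TPM + 1, CORT over Veh, on the vertical axis, for each tested gene of the 4 pathway lists in the duodenum (left) and liver (right). Filled points passed the limma threshold and are named, open points did not, and lines are list medians, which lie between 0.02 and 0.10 in the duodenum and between -0.44 and 0.40 in the liver.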

How the data were processed

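RNA-seq of duodenum and liver was analysed in 12 libraries, 3 per group, grouped by the sample labels. The authors trimmed reads with SeqPrep and Sickle, used HISAT2 in orientation mode for alignment, StringTie for assembly and RSEM for quantification. They deposited 1 TPM value for each gene in each library. The submitters' processing notes name GRCm39, and tool versions are not given in the sources used here. The authors called DEGs with DESeq2 from counts, and their supplementary fold changes and p-values were not used here.

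From TPM, log2(TPM + 1) was computed and genes averaging 1 TPM or more in at least 1 group were kept (13607 in the duodenum, 11699 in the liver). Each tissue was fitted with limma 3.58.1 in R 4.3.3 (lmFit, eBayes with a trend), and the difference between tissues in a fit of all 12 libraries with a treatment by tissue term (14806 genes by the same limit over 4 groups). Benjamini-Hochberg adjustment was made over all genes tested. DEGs passed both an adjusted p of 0.05 and a fold change of 1.5, and the difference between tissues needed only the adjusted p. For 3 libraries against 3, an exact two-sided permutation test of a single gene cannot go below 0.1. The limma p-values set a difference of means against the spread between these replicates, shrunk towards a trend over all genes. The fits were also run on simulated data with large changes, which does not bear on calls near the threshold.

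The members and lists were chosen with earlier results of these data known. The genes named were the members, the other family genes, Fkbp5 and Tsc22d3 as checks of the treatment, up to 3 called genes per list, direction and tissue by smallest adjusted p, and the 3 genes most like Nrg4 and Egfr. Of the Brunner gland list, 2 of 3 symbols matched. Promoter windows came from a RefSeq table. Alternatives were unadjusted p-values, no filter on low values, a pseudocount of 0.1, the replicate number as a block, median-ratio scaling, removal of the acinar genes and leaving out each library. A fit with Veh1 as the sole Veh library of the duodenum was chosen after seeing the data.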

Additional observations from a re-analysis of the deposited data

Results flagged for a closer look

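The treatment by tissue term of a limma fit, a test of the difference itself, passed for 3 of 66 other pathway genes tested, where 3.61% of all genes tested passed. None of the 3 passed without the filter on low values, and Egr1 and Rhbdl2 missed the threshold with a pseudocount of 0.1. Egr1, an immediate early transcription factor, had a difference of 3.65 (duodenum minus liver, SE 0.89, limma adjusted p = 0.0497), with log2 fold changes of 0.08 in the duodenum and -3.57 in the liver, and passed in 2 of 12 fits that left out a library. Ptprj, a receptor-type phosphatase, had a difference of -1.67 (SE 0.38, limma adjusted p = 0.0387), with -0.69 in the duodenum and 0.99 in the liver, neither of which passed alone, and passed in 1 of 12 such fits. Rhbdl2, a rhomboid protease, had a difference of -0.80 (SE 0.19, limma adjusted p = 0.0419). Its duodenum level was 9.54, 9.09 and 11.11 TPM in Veh and 4.97, 6.28 and 4.89 TPM in CORT, and it passed in 1 of 12 such fits. Its liver value was listed at 0 in 5 libraries and at 0.05 TPM in 1, so this difference restates the duodenum value, -0.78 with a limma adjusted p = 0.0501.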

How the results depend on the processing

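With 3 libraries per group, calls near the threshold moved with single libraries. Nrg4 was the 1 member called in the duodenum in every setting apart from the fit with Veh1 as the sole Veh library, where its log2 fold change was 1.90. Calls of members restate the values by which they were proposed, so their repeat under other settings is a description and no test. Other pathway genes called in the duodenum numbered 2 as reported, 5 by unadjusted p, 3 with a pseudocount of 0.1, median-ratio scaling or the acinar genes removed (the added one being Rhbdl2, lower in CORT), 0 without a filter, 0 with the replicate block and 0 to 1 when each library was left out. Members called in the liver numbered 1, but 2 by unadjusted p, where Egfr was added, and 2 under median-ratio scaling, where Tgfa was added and Egfr was not called. Those settings called 1808 of 11699 and 1011 of 11654 genes in all. When each library was left out, 1 to 2 members were called, Egfr being added without CORT3. Other pathway genes called in the liver numbered 5, 14 by unadjusted p, 3 without a filter, 2 with the replicate block and 2 to 9 when each library was left out, 9 being the count without Veh2. With the replicate block, limma adjusted p became 0.0516 for Timp3, 0.104 for Cblb, 0.0611 for Ptpn1, 0.121 for Ptpn11 and 0.0725 for Egr1, while Pik3r1 and Epha2 still passed, and the tissue difference of Egr1, Ptprj and Rhbdl2 became 0.171, 0.115 and 0.144. No called value changed sign, and the causes were not tested.

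The filter and the block leave a fold change as it is. Under the other alternatives, 120 of 122 log2 fold changes of members moved by less than the spread between replicates. The exceptions were Nrg4 at 2.21 with a pseudocount of 0.1 and Erbb3 at -0.29 with Veh1 as the sole Veh library. Of 126 tissue differences, 3 moved further with a pseudocount of 0.1, to 1.61 for Nrg1, 0.90 for Btc and -0.71 for Erbb2. Leaving out 1 of 3 libraries cannot move a fold change within a tissue as far as the spread between replicates. It can hardly move a tissue difference that far either. Neither count therefore measures stability against the loss of single libraries.

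Over all genes, 292 were called in the duodenum and 810 in the liver, 1395 and 1808 by unadjusted p, 52 and 283 without a filter, 62 and 307 with the replicate block, and 66 to 237 and 247 to 831 when each library was left out. The treatment by tissue term called 534 genes, and 211 with the block. In the liver 575 rose and 235 fell, against 543 and 468 under median-ratio scaling, which moved the median of all genes from 0.08 to -0.0028. Deviations of same-numbered CORT and Veh libraries had r = 0.0537, 0.0734 and -0.00390 in the duodenum and 0.0378, -0.00835 and -0.120 in the liver. Differently numbered pairs had r from -0.0829 to 0.0361 in the duodenum and from -0.140 to 0.127 in the liver. With so few libraries per group, these values cannot decide whether same-numbered libraries share more than a number, and no conclusion is drawn from them. Depth is unknown, so levels under 1 TPM carry no stated precision.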

Other observations

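Errfi1, which encodes an inhibitor of EGFR, was looked at after its values were seen. It was at 29.15, 13.77 and 28.39 TPM in Veh and 38.98, 61.11 and 47.17 TPM in CORT duodenum, a log2 fold change of 1.06 (SE 0.31, limma adjusted p = 0.137). In the liver it was at 189.65, 270.81 and 429.50 TPM in Veh and 667.69, 512.48 and 591.67 TPM in CORT, a log2 fold change of 1.06 (SE 0.29, limma adjusted p = 0.0746). CORT lay above Veh without overlap in both tissues, and it passed in the liver only without Veh3 (limma adjusted p = 0.0376). Tsc22d3, a glucocorticoid-induced gene, rose by 2.01 (limma adjusted p = 0.0185) in the duodenum, and missed the threshold there without Veh2, CORT1 or CORT2 (limma adjusted p up to 0.0604), without the filter and with the replicate block (0.0774). In the liver its log2 fold change was 1.92 (limma adjusted p = 0.0623), which did not pass, but passed with the block (0.0333) and without Veh3 (0.0386).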
